A study of Ovis aries with 62 samples.

Results

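CH4 yield, the CH4 production of a sheep divided by its dry matter intake (DMI), was examined in 44 of 62 AUS sheep. The 44 were all sheep labelled with test block 2, 3 or 4 except oz151 and oz175. Each gene was regressed on CH4 yield with block in the fit, and sheep with a yield above the median of their block (high yield, n = 21) were compared with the others of that block (low yield, n = 23). Sheep oz151 was left out because its labelled DMI of 0.0795 kg/d gives a yield of 301 g/kg DMI, and oz175 because its DMI of 0.376 kg/d gives 35.7 g/kg DMI.

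All sheep were adult Merino ewes on the same ration of lucerne and oat chaff, given above maintenance, and no sheep received a treatment, so high and low yield describe what the animals did and not what was done to them. A block was a test period. The ewes came from a small number of sires that the sample labels do not name, so some were related and no test below accounts for it. The p-values measure the spread between sheep. Each sheep gave 1 RNA sequencing library of the full thickness of the ventral rumen wall, and the unit throughout is log2 CPM, in which read numbers are scaled to library size and put on a log2 scale. Libraries of the 44 sheep held 4208032 to 12130080 assigned reads with a median of 8567270.

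CH4 is made by archaea in the rumen, which use hydrogen released when other microbes ferment feed. The rumen wall does not make CH4, but its stratified epithelium takes up the short chain fatty acids of the same fermentation and turns much of the butyrate into ketone bodies, while its smooth muscle mixes the contents and moves them on. Feed that leaves the rumen sooner is fermented less, and it is in this way that the muscle layer has been linked with CH4 yield.

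The libraries held markers of both smooth muscle and stratified epithelium. The 12 measured smooth muscle markers, which include MYH11 (smooth muscle myosin heavy chain) and CNN1 (calponin), had a mean of 9.08 to 11.6 log2 CPM per sheep, and the 9 measured markers of stratified epithelium 8.64 to 9.47 log2 CPM. Only 1224 of 16011 genes carry a symbol here, and markers of lymphocytes, macrophages, endothelium, neurons and glia, and red cells were not among them and were not analysed here. In bulk tissue, fewer cells of a type and less RNA per cell cannot be told apart.

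CH4 yield spanned 16.2 to 27.9 g/kg DMI in the 44 sheep. It was 19.8 ± 3.19 g/kg DMI (SD, n = 16) in block 2, 20.8 ± 3.02 (SD, n = 13) in block 3 and 21.8 ± 2.21 (SD, n = 15) in block 4. The means differed by less than the spread between sheep (permuted F = 1.9, p = 0.163, 100000 permutations). With oz175 of block 4 kept, the same permutation test gave F = 2.74 and p = 0.0696. A missed threshold does not show that the blocks had equal yields. The paper reports that yield did differ between blocks, driven by the last block. The block means it gives are lower than those here, and the reason was not tested. In block 2 the 8 high yield sheep lay between 19.7 and 25.8 and the 8 low yield sheep between 16.2 and 18.5 g/kg DMI. In block 3 the 6 high yield sheep lay between 19.8 and 27.9 and the 7 low yield sheep between 16.8 and 19.7. In block 4 the 7 high yield sheep lay between 21.4 and 27.3 and the 8 low yield sheep between 19.2 and 21.0. High and low yield therefore nearly touch at the median in blocks 3 and 4, and a low yield sheep of block 4 can have a higher yield than a high yield sheep of block 2. The median sheep of block 3 is oz224, whose labelled CH4 production is the same as that of oz151.

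**Figure D1:**
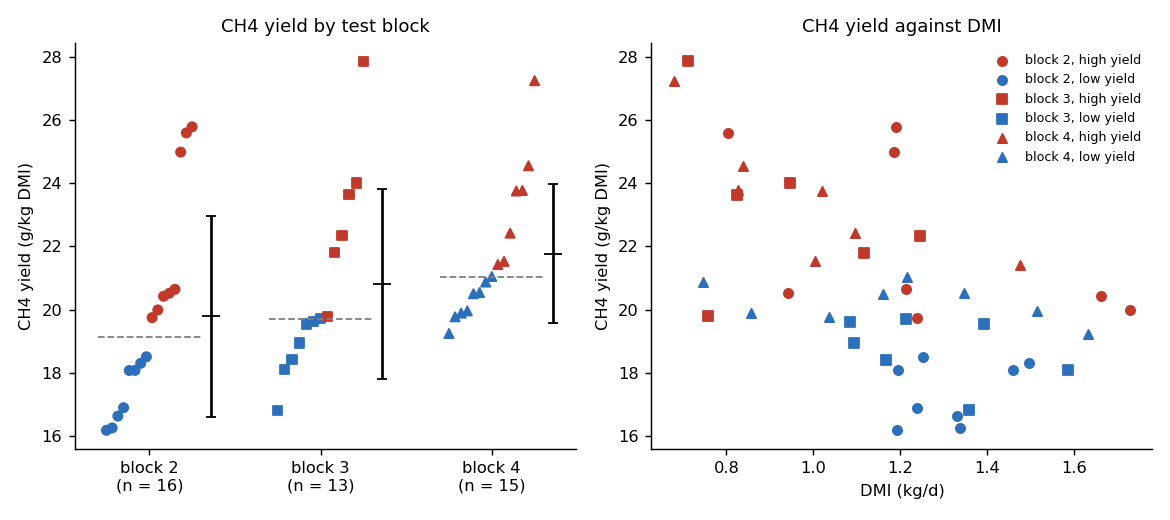
CH4 yield of 44 sheep (g/kg DMI), by block with 1 point per sheep, the dashed line at the median of the block and the bar at the mean ± SD (left), and against DMI in kg/d (right). Red marks yield above the median of the block and blue yield at or below it, and sheep of low DMI tend to lie high on the right.

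DMI and CH4 production make up yield, so their relation with it is given as a description, with no test. DMI of high yield sheep ran from 0.679 to 1.73 kg/d with a median of 1.02, and that of low yield sheep from 0.747 to 1.63 kg/d with a median of 1.24. After removal of block means, yield and DMI were negatively correlated (Pearson r = -0.53, Spearman rho = -0.54). The r was -0.51 without the 2 sheep of the most extreme DMI, and it was -0.37, -0.69 and -0.61 within blocks 2, 3 and 4. DMI is the divisor of yield, so part of this relation is built into the ratio.

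CH4 production had an r near 0. It ran from 15.0 to 34.6 g/d with a median of 24.2 in high yield sheep, and from 15.6 to 31.4 g/d with a median of 22.8 in low yield sheep (r = 0.013, rho = 0.016). Within blocks 2, 3 and 4 the r was 0.39, -0.2 and -0.37. Live weight had medians of 64 kg in high and 65 kg in low yield sheep (r = 0.026, permutation p = 0.871, adjusted p = 0.933 over the 4 relations computed, and rho = -0.052, p = 0.747), with r of 0.38, -0.078 and -0.46 within the blocks. Assigned reads had medians of 8268356 and 8770140 (r = -0.17, permutation p = 0.245, adjusted p = 0.491, and rho = -0.097, p = 0.544), with r of -0.36, 0.19 and -0.3. Without the 2 sheep most extreme in each measure, r was -0.0029 for CH4 production, 0.026 for live weight and -0.19 for assigned reads. Neither live weight nor assigned reads passed the threshold.

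No gene passed the threshold in either comparison. In the regression on yield, 0 of 16011 genes (0%) had an adjusted p under 0.05 by limma, and the smallest adjusted p was 0.401. At an unadjusted p under 0.05 there were 674 genes (4.21%), of which 326 (2.04%) had a positive and 348 (2.17%) a negative slope, and 47.2% of all genes had a positive slope. Between high and low yield sheep 0 genes (0%) passed, the smallest adjusted p was 0.466, and 1077 genes (6.73%) had an unadjusted p under 0.05, of which 420 (2.62%) were higher and 657 (4.1%) lower with high yield. The regression thus gave fewer small p-values than the 5% that a flat distribution holds, and the split gave more. The excess stayed after quantile normalization, with 1126 genes, but the lean toward lower genes did not, with 557 higher and 569 lower. The size of the excess depended on the sheep and on where they were split. Without block 4 the split gave 694 genes, 341 higher and 353 lower. When sheep were split at the median of all 44 it gave 752 genes, 395 higher and 357 lower. The precision of limma weighs on these counts. For the median gene, the 95% confidence interval (CI) of the slope reached 0.04 log2 CPM per g/kg DMI to either side, and that of the difference between high and low yield 0.218 log2 CPM, or 1.16-fold.

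**Figure D2:**
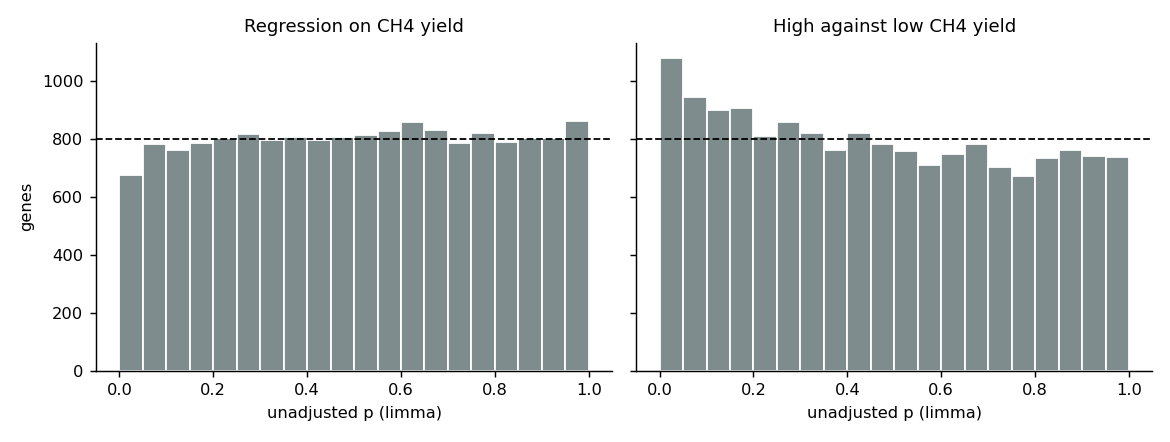
Unadjusted limma p-values of 16011 genes in bins of width 0.05, for the regression on CH4 yield (left) and for high against low yield (right), with a dashed line at the height of a flat distribution. The first bin holds 674 genes on the left, below the line, and 1077 on the right, above it.

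The metabolic genes that the study tied to both CH4 production and CH4 yield had small positive slopes on yield. The set holds 14 genes, among them ACADS and BDH1 of ketone body synthesis. All 14 slopes were positive (0.0055 to 0.052 log2 CPM per g/kg DMI, median 0.016, against -0.0011 for all genes), and 0 of 14 had an unadjusted p under 0.05. Between high and low yield, 13 of 14 were higher with high yield, with a median difference of 0.078 log2 CPM, and again 0 of 14 had an unadjusted p under 0.05. The genes of the set move together across sheep, so the shared sign is not that of 14 separate measurements, and the study chose the set on samples that include these, so its direction is not independent evidence.

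Ketone body synthesis from butyrate begins with its activation to butyryl-CoA, which is then oxidized. The paper proposes ACSF2, an acyl-CoA synthetase, as a candidate for the activation. ACSF2 spanned 9.34 to 10.4 log2 CPM (median 9.86) in high and 9.32 to 10.3 (median 9.79) in low yield sheep. ACADS, the short chain acyl-CoA dehydrogenase, spanned 7.12 to 8.62 (median 8.01) and 7.09 to 8.67 (median 8.03). High and low yield sheep overlapped over nearly their whole range in both. The slope was 0.011 ± 0.016 (SE, n = 44) for ACSF2 and 0.009 ± 0.021 (SE, n = 44) for ACADS. ECHS1 and HADH, which carry out the next steps of beta-oxidation, had slopes of 0.013 ± 0.013 and 0.02 ± 0.019.

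The last step is that of BDH1. BDH1, which reduces acetoacetate to beta-hydroxybutyrate, spanned 8.46 to 10.1 log2 CPM (median 9.4) in high and 8.22 to 10.1 (median 9.36) in low yield sheep, and high yield sheep had 1.08-fold the level of low yield sheep (95% CI 0.916 to 1.28). High and low yield sheep thus covered much the same levels, and the CI reaches from a lower to a higher level with high yield.

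A further 3 genes of the ketone list had negative slopes. ACAT1, the acetoacetyl-CoA thiolase, had a slope of -0.0068 ± 0.017, and OXCT1, which uses ketone bodies as fuel, one of -0.024 ± 0.026. ACSS1, which activates acetate in mitochondria, spanned 3.85 to 5.69 log2 CPM (median 4.84) in high and 3.88 to 6.09 (median 5.05) in low yield sheep. It was 0.727-fold in high yield sheep (95% CI 0.582 to 0.908, unadjusted limma p = 0.00596, adjusted p = 0.61) and the one gene of the list with an unadjusted p under 0.05 in either comparison. The study's network put ACSS1 in the muscle cluster, where 614 of 647 genes were lower with high yield. Over the 10 measured genes of ketone body synthesis, 7 slopes were positive and the median was 0.011 (0.0059 without oz97 and 0.0008 without block 2). The direction did not hold when oz175 was kept (3 of 10 positive, median -0.0036) or with the mean of the muscle cluster as a covariate (4 of 10, median -0.0018).

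The remaining genes of the set of 14 include reductases, a sulfotransferase, a hydrolase and an amine oxidase. For ETFA-like the study proposes a part in ketone body synthesis, and it lists FAM162A and RPL35-like with unknown function. SULT1C2, a cytosolic sulfotransferase, had the steepest slope, 0.052 ± 0.032 (95% CI -0.012 to 0.117, adjusted p = 0.999). It spanned 3.64 to 6.03 log2 CPM (median 5.22) in high and 3.34 to 5.81 (median 4.92) in low yield sheep, and the ranges overlapped. CBR1 (carbonyl reductase), AKR1C4 (an aldo-keto reductase) and ABHD11 had slopes of 0.021 ± 0.024, 0.018 ± 0.022 and 0.021 ± 0.02. MAOA, monoamine oxidase A, was 1.13-fold in high yield sheep (95% CI 0.965 to 1.31), and BSG, the chaperone of monocarboxylate transporters, 1.06-fold (95% CI 0.929 to 1.2). FAM162A, ETFA-like (1 of 2 genes with that name), Prostaglandin F synthase1-like and RPL35-like had slopes of 0.011, 0.0055, 0.0082 and 0.015.

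The values of the metabolic genes moved with the mean of the muscle cluster. With the mean of the muscle cluster as a covariate, 7 of 14 slopes were positive with a median of 9.15e-05, and between high and low yield 3 of 14 were positive with a median of -0.054 log2 CPM. Sheep oz238 had the lowest mean of the set among all 44 sheep (6.92 log2 CPM) and oz141, which had the lowest mean of the muscle cluster, the highest (8.36 log2 CPM). Both are high yield sheep of block 3. The median slope of the set was 0.0072 without oz97, 0.0017 without block 2 and, with 8 of 14 positive, 0.0018 when oz175 was kept.

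**Figure D3:**
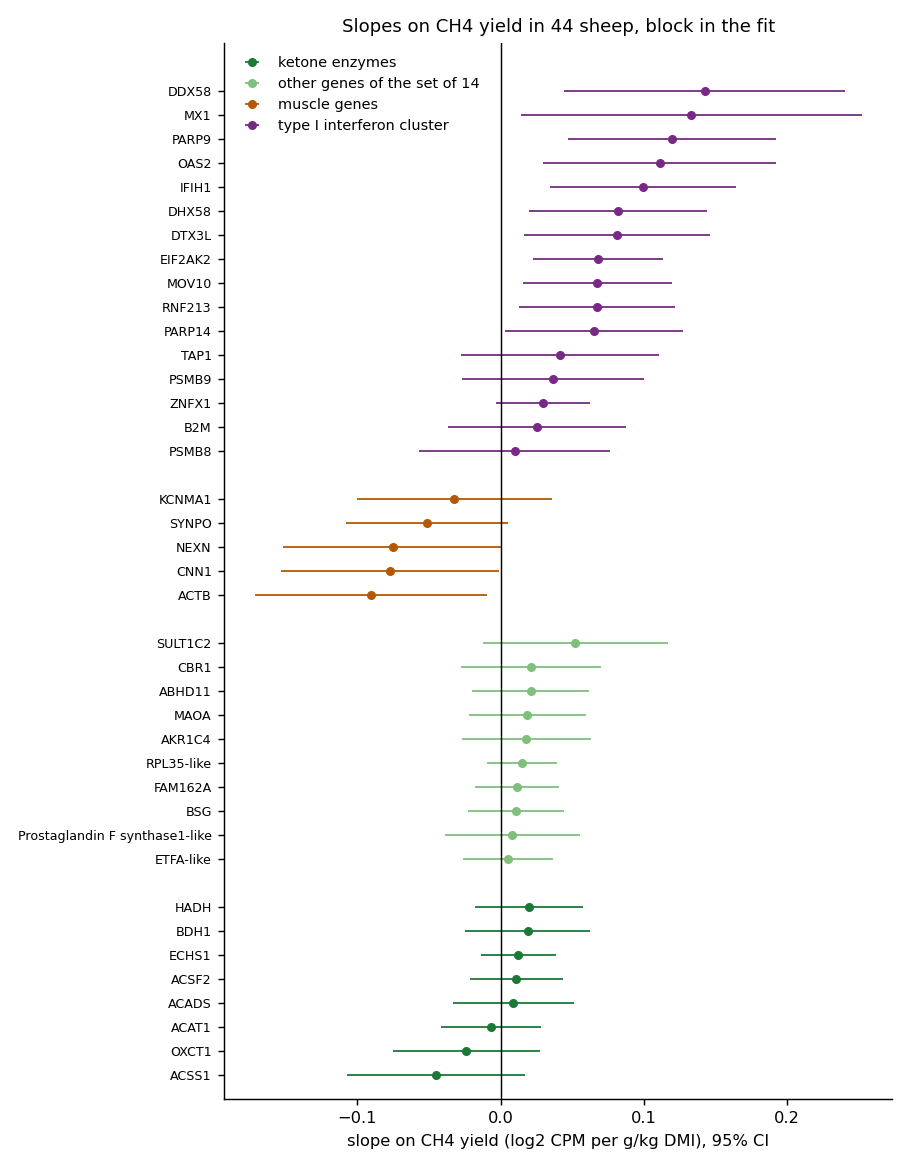
Slope of each gene on CH4 yield in 44 sheep with its 95% CI (log2 CPM per g/kg DMI, block in the fit), for the ketone body enzymes and other metabolic genes reported here, 5 genes of the muscle layer (ACTB is ENSOARG00000012108) and the 16 genes of the type I interferon cluster. The metabolic intervals all include 0, and 11 of the 16 interferon intervals lie wholly to the right of 0, but no gene passed the adjusted threshold.

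Muscle genes lay on the other side. Of 647 genes of the muscle cluster, 563 had a negative slope and 84 a positive one, with a median of -0.016, and 18 had a negative slope at an unadjusted p under 0.05, a share of 2.78% beside 2.17% of all genes. Between high and low yield 614 were lower with high yield, the median difference was -0.161 log2 CPM, and 151 (23.3%) had an unadjusted p under 0.05, all lower, beside 4.1% of all genes. None passed an adjusted p of 0.05. The study grouped these genes because they move together across sheep, so they are not 647 separate measurements. The mean of the cluster per sheep ran from 5.02 to 6.09 log2 CPM (median 5.77) in high and from 5.11 to 6.41 (median 5.84) in low yield sheep, so the ranges overlapped. The highest value of all belonged to a low yield sheep, oz244. These counts rest on few sheep: the 18 became 6 without oz18 and 85 without oz143, and the 151 became 61 without oz18, 11 without block 4 and 3 with the split at the median of all 44 sheep. When oz175 was kept the median slope was 0.00034, with 334 of 647 positive.

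Smooth muscle markers were lower with high yield by more. They mark the same layer as the muscle cluster, so they are not 12 separate measurements. All 12 had negative slopes (median -0.059), 1 with an unadjusted p under 0.05, and between high and low yield all 12 were lower (median -0.522 log2 CPM), 11 with an unadjusted p under 0.05, beside 4.1% of all genes. CNN1 (ENSOARG00000018621) spanned 9.07 to 10.99 log2 CPM (median 9.89) in high and 8.95 to 11.8 (median 10.7) in low yield sheep. Of 21 high yield sheep, 19 lay below the low yield median, although the ranges overlapped. High yield sheep had 0.647-fold the level of low yield sheep (95% CI 0.492 to 0.85, unadjusted limma p = 0.00239, adjusted p = 0.534). The gene ENSOARG00000012108, 1 of 3 that carry the symbol ACTB (beta-actin) and may share reads with the others, had medians of 10.8 and 11.7 log2 CPM and was 0.615-fold in high yield sheep (95% CI 0.46 to 0.824, adjusted p = 0.534). The count of smooth muscle markers rests on block 4: without it 0 of 12 had an unadjusted p under 0.05, with a median difference of -0.354 log2 CPM, and it was 8 of 12 without oz108. With the split at the median of all 44 sheep, 0 of 12 had one and the median difference was -0.165. With the mean of the muscle cluster as a covariate the median difference was -0.217 and 8 of 12 had one. When oz175 was kept the median slope was -0.0025 and 4 of 12 slopes were positive.

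The study named genes of cell junctions and ion channels as candidates for a link of the muscle layer with rumen retention time. SYNPO, synaptopodin, an actin-associated protein, spanned 2.51 to 4.38 log2 CPM (median 3.2) in high and 2.3 to 4.48 (median 3.55) in low yield sheep, with a slope of -0.051 ± 0.028 (95% CI -0.108 to 0.0055). NEXN, nexilin, which binds actin filaments, spanned 4.15 to 7.33 (median 6.01) and 4.94 to 7.47 (median 6.47), with a slope of -0.075 ± 0.038. KCNMA1, the pore of the large conductance calcium-activated potassium channel, spanned 3.9 to 6.38 (median 5.43) and 3.82 to 6.74 (median 5.68), with a slope of -0.032 ± 0.034. All 3 had a lower median with high yield and wide overlap. KCNMB1, the beta subunit of the same channel, was 0.718-fold in high yield sheep (95% CI 0.566 to 0.909, unadjusted limma p = 0.00699, adjusted p = 0.613), and 19 of 21 high yield sheep lay below the low yield median. The values of these genes were not adjusted for the mean of the muscle cluster, so a smaller share of muscle in the sample cannot be told apart from them.

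Of the 41 candidate genes for retention time, 40 had negative slopes (median -0.045) and 8 an unadjusted p under 0.05, all negative, beside 2.17% of all genes, while 12 were lower at that level in the split, beside 4.1%. The study chose these genes on AUS sheep by their relation with retention time, not with CH4 yield. The sheep it used include sheep of the same series, so the list is not independent evidence of its direction. SUPT7L, a subunit of a histone acetylating coactivator complex, had the smallest p among them. It spanned 1.04 to 3.07 log2 CPM (median 2.22) in high and 1.42 to 3.29 (median 2.59) in low yield sheep and had a slope of -0.065 ± 0.027 (adjusted p = 0.999). The count of 8 rests on few sheep, since it was 2 without oz97 and 14 without oz238. With the muscle cluster as a covariate 6 of 41 had an unadjusted p under 0.05 and the median slope was -0.023, and in the split the 12 became 1, with the median difference moving from -0.247 to -0.059 log2 CPM and 12 of 41 positive. The 12 of the split were also 3 without block 2, 2 without block 4 and 4 with the split at the median of all 44 sheep.

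Other lists of the muscle layer gave like values. Symbols came from the study's own gene lists, so these lists can share genes with the muscle cluster and are not independent of it. Their genes are not separate measurements either. All 25 genes of cell junctions and the actin cytoskeleton had negative slopes (median -0.044, 0 with an unadjusted p under 0.05) and were lower with high yield (median -0.313 log2 CPM), 14 with an unadjusted p under 0.05, beside 4.1% of all genes (6 without oz18, 0 without block 4). When oz175 was kept their median slope was -0.0039 with 9 of 25 positive, and with the muscle cluster as a covariate it was -0.015. Of 13 ion channel and calcium handling genes 12 had negative slopes (median -0.031) and 3 were lower at that level in the split, but with the muscle cluster as a covariate 9 of the 13 slopes were positive. Of 11 fibroblast and matrix markers 10 had negative slopes, while with oz175 kept 10 were positive. FMOD, fibromodulin, a collagen-binding proteoglycan, lay below the low yield median in 20 of 21 high yield sheep (0.778-fold, 95% CI 0.639 to 0.947, adjusted p = 0.671). The one measured fat cell marker, PLIN4, was 0.812-fold (95% CI 0.622 to 1.06).

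Of the 10 genes with a symbol and the smallest p on the positive side of the regression, 9 belonged to the type I interferon cluster. Only 1224 of 16011 genes carry a symbol, and symbols came from the study's own gene lists. The ranking thus leaves out most genes, and genes without a symbol, given below, had smaller p-values. Its genes sense viral RNA and raise an antiviral state, and they are switched on together. All 16 genes of the cluster had positive slopes, with a median of 0.068 log2 CPM per g/kg DMI, and 11 of 16 had an unadjusted p under 0.05, beside 2.04% of all genes. None passed after adjustment, and the adjusted p was 0.999 for each of the 16. Between high and low yield all 16 were higher with high yield (median 0.308 log2 CPM) and 3 had an unadjusted p under 0.05, beside 2.62% of all genes (2 without oz238, 9 without oz92). They move together across sheep, so they are not 16 separate measurements.

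The cluster holds the RNA sensors of the cell. IFIH1 (ENSOARG00000006142), which encodes MDA5, spanned 4.4 to 7.08 log2 CPM (median 5.25) in high and 3.75 to 6.26 (median 5.0) in low yield sheep, and 15 of 21 high yield sheep lay above the low yield median. Its slope was 0.1 ± 0.032 (SE, n = 44, 95% CI 0.035 to 0.164, unadjusted limma p = 0.00337, adjusted p = 0.999). DDX58, which encodes RIG-I, had the steepest slope of the cluster, 0.143 ± 0.049, and spanned 2.18 to 6.76 (median 3.42) in high and 2.15 to 5.64 (median 3.32) in low yield sheep. The medians of DDX58 hardly differed, and its high yield sheep reached further up. DHX58, a regulator of both sensors, had a slope of 0.082 ± 0.031.

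Effectors had like slopes. EIF2AK2, the kinase PKR that stops translation when it binds double-stranded RNA, spanned 5.98 to 7.71 log2 CPM (median 6.61) in high and 5.77 to 7.37 (median 6.24) in low yield sheep and had a slope of 0.068 ± 0.022. OAS2, an oligoadenylate synthetase that activates RNA decay, spanned 4.73 to 8.41 (median 6.35) and 4.73 to 7.63 (median 5.93) and had a slope of 0.111 ± 0.04. MX1, an antiviral GTPase, had a slope of 0.133 ± 0.059. PARP9 and DTX3L, which form a complex that modifies histones in interferon signalling, had slopes of 0.12 ± 0.036 and 0.082 ± 0.032. PARP9 spanned 3.76 to 7.09 (median 4.78) in high and 3.18 to 6.0 (median 4.43) in low yield sheep. MOV10, an RNA helicase, and RNF213, a large ubiquitin ligase, each had a slope of 0.068. All these ranges overlapped between high and low yield. The genes of antigen processing in the cluster had smaller slopes: TAP1, PSMB9, B2M and PSMB8 had slopes of 0.042, 0.037, 0.026 and 0.0099, none with an unadjusted p under 0.05.

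The mean of the cluster per sheep ran from 4.75 to 7.56 log2 CPM (median 5.51) in high and from 4.57 to 6.59 (median 5.38) in low yield sheep. The highest value was that of oz238, a high yield sheep of block 3 with a yield of 23.6 g/kg DMI. Without oz238 the median slope was 0.055, and leaving out each sheep in turn kept it between 0.055 and 0.08. The count of 11 was 8 without oz97 and 13 without oz143. Without block 2 the median slope was 0.084 and 3 of 16 had an unadjusted p under 0.05, so the count rests on block 2. When oz175 was kept, 14 of 16 slopes were positive with a median of 0.025, and 0 had an unadjusted p under 0.05. With the muscle cluster as a covariate the median was 0.066 and the count 10. Markers of immune cells were not measured under a symbol, and their part in the result was not tested.

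**Figure D4:**
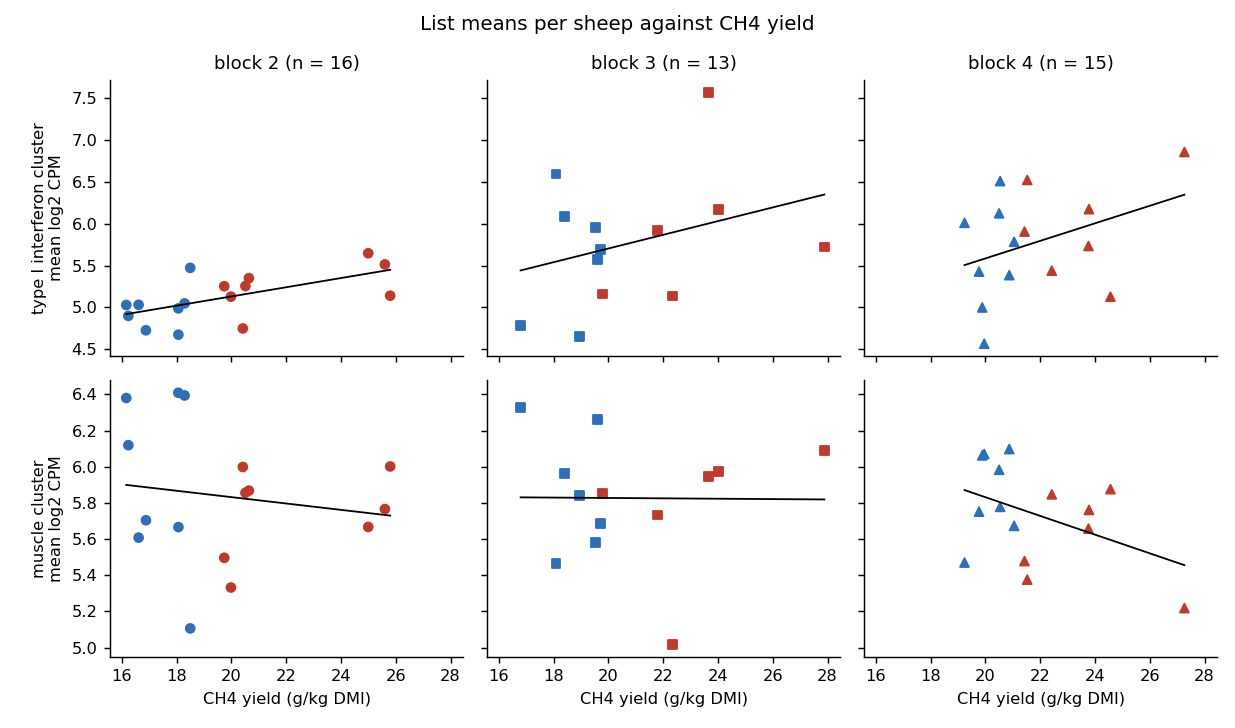
Mean log2 CPM of the type I interferon cluster (16 genes, top) and of the muscle cluster (647 genes, bottom) against CH4 yield (g/kg DMI), with 1 point per sheep, 1 panel per block, red for high and blue for low yield, and a least squares line in each panel. The interferon line rises in each block with wide scatter, while the muscle line is nearly level in block 3 and falls most in block 4.

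Outside these groups, the genes with a symbol and the smallest p had small differences. NUP93, a scaffold nucleoporin, spanned 5.83 to 6.61 log2 CPM (median 6.26) in high and 5.64 to 6.34 (median 5.95) in low yield sheep. It lay above the low yield median in 18 of 21 high yield sheep, with a slope of 0.034 ± 0.011 and a 1.16-fold difference (95% CI 1.07 to 1.26, adjusted p = 0.534). Of the 10 genes with a symbol and the smallest p with positive slopes, NUP93 alone was not in the interferon cluster. The other genes with the smallest p higher with high yield in the split were OSTC, a subunit of the oligosaccharyltransferase, at 1.15-fold (95% CI 1.06 to 1.25), NIPAL1, a magnesium transporter, at 1.19-fold (95% CI 1.06 to 1.34), REPS1, an endocytosis protein, at 1.11-fold (95% CI 1.04 to 1.19) and PTPN2, a tyrosine phosphatase that dampens interferon signalling, at 1.14-fold (95% CI 1.04 to 1.25). None passed after adjustment.

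On the negative side, RAB5B, a small GTPase of early endosomes, had the smallest p among genes with a symbol. It spanned 4.66 to 5.38 log2 CPM (median 5.1) in high and 5.01 to 5.6 (median 5.32) in low yield sheep, and 19 of 21 high yield sheep lay below the low yield median. Its slope was -0.028 ± 0.011 and its adjusted p 0.999. FAM83D, a protein of the mitotic spindle that the study's network put in the muscle cluster, was 0.706-fold in high yield sheep (95% CI 0.581 to 0.858, adjusted p = 0.534), and TMEM106B, a lysosomal membrane protein, 0.78-fold (95% CI 0.671 to 0.906, adjusted p = 0.534). CALML4, calmodulin-like 4, was 0.657-fold (95% CI 0.512 to 0.845). MSN, moesin, which ties actin to the membrane, DYNC1LI2, a light intermediate chain of dynein, and ARHGAP21, a GTPase-activating protein, had slopes of -0.045 ± 0.019, -0.027 ± 0.011 and -0.037 ± 0.015. ZNF362, RNF10 and WBP2 completed the 10, with slopes of -0.126, -0.024 and -0.057. ZNF362 rested on 0 to 35 reads per library.

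The smallest p-values of the whole table belonged to genes with no symbol and few reads. ENSOARG00000013472 had 1 to 19 reads per library. It spanned -1.32 to 0.858 log2 CPM (median -0.024) in high and -2.83 to 0.762 (median -1.25) in low yield sheep, with a slope of 0.191 ± 0.043 (adjusted p = 0.401). ENSOARG00000015863 had 0 to 11 reads per library and a slope of -0.246 ± 0.056 (adjusted p = 0.401), and ENSOARG00000012034 had 1 to 21 reads and a slope of -0.143 ± 0.033 (adjusted p = 0.401). ENSOARG00000013542 had 1 to 22 reads and a slope of 0.171 ± 0.042 (adjusted p = 0.632). At such depth a value moves in steps of whole reads, and none of the 4 reached 3 CPM in all libraries.

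The lists of cornification and of epithelial differentiation genes had medians of opposite sign in the regression and the split, while KRT13 was lower in both. The 9 stratified epithelium markers had positive medians in both, 0.00092 (5 of 9 positive) and 0.039 log2 CPM (6 of 9 positive). With oz175 kept, their median slope was -0.013 with 0 of 9 positive. KRT13 (ENSOARG00000016951), a keratin of the suprabasal layers, spanned 8.58 to 11.9 log2 CPM (median 9.93) in high and 8.73 to 11.7 (median 10.9) in low yield sheep. It lay below the low yield median in 19 of 21 high yield sheep, and it was 0.605-fold in high yield sheep (95% CI 0.452 to 0.809, unadjusted limma p = 0.00113, adjusted p = 0.534). Of the 15 cornification and keratin genes, KRT13 among them, 5 were lower and 10 higher with high yield in the split (median 0.126 log2 CPM), while 13 of 15 had negative slopes in the regression (median -0.02). Neither sign was stable: the median slope was 0.0065 without oz143, and the median difference was -0.028 log2 CPM with 5 of 15 positive without block 4. OVOL1, a transcription factor of epithelial differentiation, was 1.15-fold in high yield sheep (95% CI 1.02 to 1.31, adjusted p = 0.697) and had a slope of 0.04 ± 0.016.

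The 43 genes of epithelial differentiation did the same. Their median slope was -0.0078, with 35 of 43 negative, and their median difference between high and low yield was 0.081 log2 CPM, with 36 of 43 higher. The sign of the slope rests on oz143 of block 3, which had the highest yield of the 44 sheep (27.9 g/kg DMI) and the lowest mean of the list (7.13 log2 CPM): without it the median slope was 0.0056 and 31 of 43 were positive. Without block 2 the median was 0.0023. For 43 cell cycle genes the slope had a median of -0.0073 and the split one of 0.076 log2 CPM, and without oz143 the median slope was 0.0036. With the muscle cluster as a covariate the median difference of the split was -0.045 log2 CPM. MKI67, the Ki-67 proliferation marker, had the smallest p of the cell cycle genes, with a slope of -0.049 ± 0.026 and medians of 5.99 and 5.95 log2 CPM in high and low yield sheep.

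Slopes of energy metabolism genes were small. Of 26 genes of the respiratory chain and ATP synthase 21 had negative slopes, but the median was -0.0034 and 0 had an unadjusted p under 0.05. ATP5B, the catalytic beta subunit of ATP synthase, had the smallest p of them, with a slope of -0.016 ± 0.0087. Of 10 measured genes of short chain fatty acid uptake and pH control 6 had positive slopes (median 0.0045, 0 with an unadjusted p under 0.05). ATP6V1E1, a subunit of the proton pump, had a slope of -0.014 ± 0.012. Of 7 genes of propionate and branched chain acid metabolism 5 had positive slopes (median 0.0064), with 0.027 ± 0.018 for MUT, the mutase that leads propionate into the citric acid cycle. Of 17 reductases and conjugation enzymes 11 had positive slopes (median 0.011, 0 with an unadjusted p under 0.05). Of 41 lipid and oxo-acid genes 28 did, and PDK3, a kinase that restrains pyruvate dehydrogenase, had a slope of 0.042 ± 0.019. It was the one of them with an unadjusted p under 0.05, a share of 2.44% beside 2.04% of all genes. Of 42 general metabolism genes 21 had positive slopes, and of 354 other metabolism genes 213 did (median 0.0026, 4 with an unadjusted p under 0.05). Those 4 are 1.13% of the list, a smaller share than the 2.04% of all genes. The mostly positive directions did not hold when oz175 was kept. Positive slopes were then found in 1 of 10 acid uptake and pH genes, 3 of 7 propionate genes and 6 of 17 reductases and conjugation enzymes. The same was true of 11 of 41 lipid and oxo-acid genes and 132 of 354 other metabolism genes. The respiratory chain and ATP synthase genes stayed mostly negative, with 8 of 26 positive.

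The slope on yield was compared between blocks 2, 3 and 4. By the limma F test of the interaction 0 of 16011 genes (0%) had an adjusted p under 0.05, the smallest adjusted p was 0.363, and 659 genes (4.12%) had an unadjusted p under 0.05. Interferon genes had positive median slopes in each block, 0.058, 0.08 and 0.105 in blocks 2, 3 and 4. IFIH1 had slopes of 0.08 ± 0.031, 0.125 ± 0.058 and 0.102 ± 0.074 in those blocks, and the interaction had an unadjusted p of 0.831. Muscle genes had medians of -0.016, -0.0013 and -0.045, and 9 of 647 had an unadjusted interaction p under 0.05, a share of 1.39% beside 4.12% of all genes. Of the 15 cornification and keratin genes 4 had one, and of the 43 epithelial differentiation genes 6, with median slopes of -0.036, -0.033 and 0.057 and of -0.02, -0.02 and 0.036. CNN1 had slopes of -0.067 ± 0.06, -0.0072 ± 0.055 and -0.214 ± 0.059, with an unadjusted interaction p of 0.145. The metabolic set of 14 had medians of 0.024, 0.001 and 0.012, with 14, 8 and 10 positive slopes. With 13 to 16 sheep per block the SE within a block is wide, and a missed threshold does not show that the slopes were equal.

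**Figure D5:**
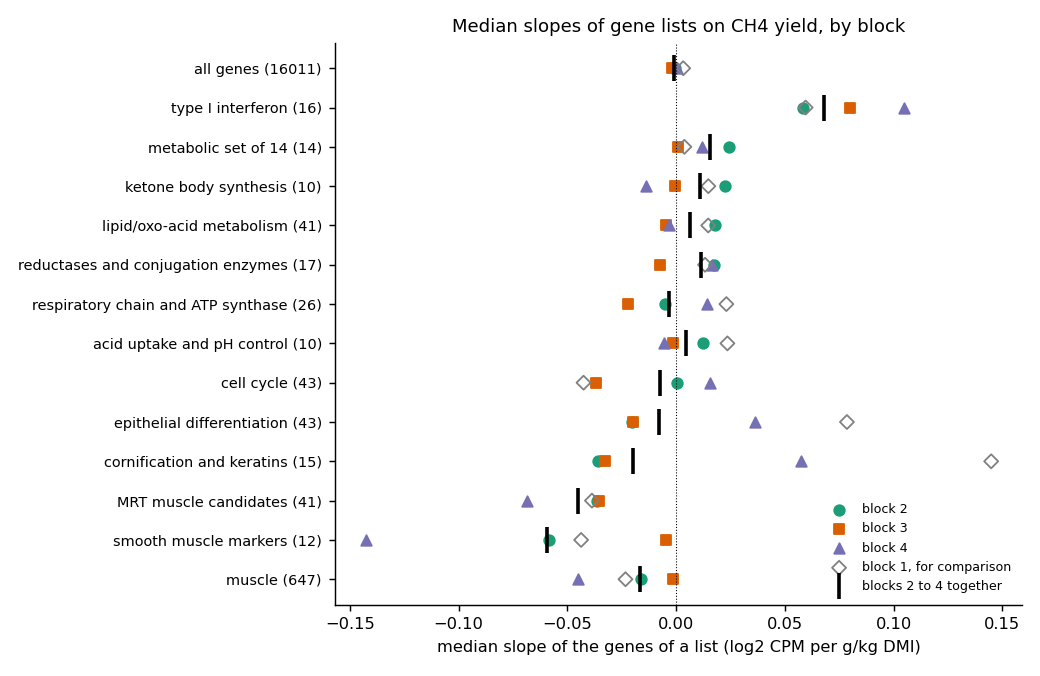
Median slope on CH4 yield (log2 CPM per g/kg DMI) of the genes of each list, with the number of genes in brackets, fitted within block 2, 3 or 4 (filled marks), in block 1 for comparison (open diamonds) and over blocks 2 to 4 together (black bars). The interferon marks lie to the right of 0 in every block, while epithelial differentiation and cornification have marks on both sides of 0.

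Because DMI divides yield, the slope on yield was also fitted with DMI held constant. Again 0 genes (0%) passed, with a smallest adjusted p of 0.113, and 1380 genes had an unadjusted p under 0.05, 615 (3.84%) with a positive and 765 (4.78%) with a negative slope. The metabolic set had a median of 0.048, steeper than the 0.016 without DMI, and 9 of 14 had an unadjusted p under 0.05. The study chose this set by its relation with CH4 production and yield in samples that include these. The count is therefore not independent evidence. ACADS had a slope of 0.057 ± 0.021 (adjusted p = 0.475). Interferon genes had a median of 0.071 with 8 of 16 at an unadjusted p under 0.05, and IFIH1 a slope of 0.111 ± 0.038. The 41 retention time candidates had a median of -0.074, with 27 at that level. At a given DMI, a sheep with a higher yield is one with a higher CH4 production.

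The parts of the ratio were fitted on their own in the same sheep. On DMI 0 genes (0%) passed, with a smallest adjusted p of 0.329, and 1096 had an unadjusted p under 0.05, 666 (4.16%) positive and 430 (2.69%) negative. On CH4 production 0 genes (0%) passed, with a smallest adjusted p of 0.137, and 1803 had an unadjusted p under 0.05, 976 (6.1%) positive and 827 (5.17%) negative. The metabolic set had all 14 slopes positive on both, with medians of 0.351 log2 CPM per kg/d of DMI and 0.03 log2 CPM per g/d of CH4, and 4 and 12 of 14 had an unadjusted p under 0.05. The study chose the set by its relation with CH4 production and yield in samples that include these. That choice favours positive slopes on CH4 production, so the 12 of 14 is not independent evidence. ACADS had a slope of 0.663 ± 0.208 on DMI and of 0.046 ± 0.011 on CH4 production (adjusted p = 0.574 and 0.142). The slopes on DMI, CH4 production and yield are in different units, and no test compared them. The interferon genes had a median of -0.345 log2 CPM per kg/d of DMI (4 of 16 positive) and of 0.0058 log2 CPM per g/d of CH4 (11 of 16 positive, 0 with an unadjusted p under 0.05). These fits share the 44 sheep and their labels with the fit on yield.

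Block 1, which had been left out, was set against blocks 2 to 4 in a fit of 60 sheep. The difference of the slopes passed in 0 of 16011 genes (0%), the smallest adjusted p was 0.661, and 531 genes (3.32%) had an unadjusted p under 0.05. In the 16 sheep of block 1 the interferon genes had a median slope of 0.06 with 15 of 16 positive, and IFIH1 had a slope of 0.09 ± 0.054. The difference for IFIH1 was -0.0094 (95% CI -0.188 to 0.169), an interval wider than the slope itself. The metabolic set had a median slope of 0.0038 in block 1 with 8 of 14 positive. The 15 cornification and keratin genes had a median slope of 0.145 in block 1 and -0.02 in blocks 2 to 4, and 1 of the 15 had an unadjusted p under 0.05 for the difference. KRT13 had a slope of 0.094 ± 0.127 in block 1 (difference 0.187, 95% CI -0.072 to 0.447).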

How the data were processed

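Per the paper's methods, libraries were stranded and depleted of ribosomal RNA, TopHat with Bowtie2 placed the reads on Ensembl sheep gene models, and HTSeq counted them. The submitters' processing notes name limma and edgeR too. What the authors deposited is voom output, a log2 CPM per gene and sheep (16011 genes, offset 0.5 reads). Scaled back, 100% of values gave whole reads (tolerance 0.01 reads), and 4390 genes fell under 1 CPM in some library. No 2 of the 44 libraries agreed within sampling noise (lowest chi-square per degree of freedom 10.9 over 10045 genes).

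Every gene was fitted by limma 3.58.1 (R 4.3.3), using empirical Bayes variances with a trend, Benjamini-Hochberg adjustment over all 16011 genes and a threshold of 0.05, and the code was tested on simulated data. Relations of yield with other traits used 2-sided permutation of residuals within blocks (100000 permutations, Python 3.11.15, numpy 2.4.6, scipy 1.17.1, pandas 2.3.3). Plots used matplotlib 3.10.9. Members and lists were chosen with earlier results of these data known. Symbols, clusters and the study's sets came from tables of the paper. The rule for named genes took genes with a symbol: the 10 smallest p in each direction of the regression, the 5 smallest of the split, the metabolic set, the ketone list, SYNPO, NEXN, KCNMA1 and the smallest p of each other list. MX1, the antigen processing genes and genes with no symbol were named after their values were seen. Intervals are at 95%. Gene positions and sequences were not used here. Some genes of the lists are counted with their list but not reported here one by one.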

Additional observations from a re-analysis of the deposited data

How the results depend on the processing

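None of 134 fits across all genes, main and alternative, gave a gene with an adjusted p under 0.05. The alternatives were a 3 CPM filter, quantile normalization, an offset of 2 reads, median-of-ratios size factors, no variance trend, voom precision weights (chosen after seeing the data), oz175 kept, oz224 left out, a covariate (muscle mean, live weight or depth), other forms of yield, other splits, and each block or each of 44 sheep left out. Their smallest adjusted p was 0.152 for the regression (no block term) and 0.0922 for the split (without oz187). With 1 sheep left out, genes at an unadjusted p under 0.05 numbered 576 (without oz94) to 871 (without oz31) in the regression, and 689 (without oz108) to 1394 (without oz143) in the split. The other alternatives gave 389 (3 CPM filter, which tests 10157 genes) to 965 (rank of yield within block) in the regression, and 681 (3 CPM filter) to 1244 (without block 3) in the split, where leaving out block 4 gave 694; the cause was not tested. With oz175 kept, r with yield turned to -0.17 for CH4 production, -0.0048 for live weight and 0.052 for assigned reads, and 14 of 64 named genes changed sign in the regression and 1 in the split; with the muscle mean as covariate 11 and 16 did. Of 1972 values of named genes under an alternative, 1821 moved by 1 SE or less. The planned quasi-likelihood test of edgeR on recovered reads was left out, although whole reads were recovered, because count tests were kept to files deposited as counts or CPM. The voom weights used those reads. No paired analysis was possible because each sheep was tested in 1 block and the numbers within blocks only name the sheep. Precision, depth and unknown sires limit these results: genes with few reads move in steps, and a gene that misses the threshold is not shown to be unrelated to yield.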
